A study of Mus musculus with 5 samples.

Results

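The cells described here were hepatic stellate cells (HSC) of the VitA+Col1a1+ DEN+WAD library, selected on the RNA of 5 genes: Ngfr, Adcyap1r1, Vtn, Gcgr and Tmem178. Of the 10481 cell barcodes of that library, 9912 were eligible, with at least 5000 UMIs (unique molecular identifiers, which count captured RNA molecules), at least 1 UMI of Lrat, and no UMI of Pecam1 or Ptprc. The UMI minimum removed 268 barcodes, the Lrat criterion a further 169, the endothelial gene Pecam1 a further 132 and the leukocyte gene Ptprc none. Each eligible cell received a score, the summed UMIs of the 5 genes per 10000 UMIs of the cell, and the 991 cells in the top 10% are called the Ngfr-Vtn-Gcgr cells. They were compared with the 4956 cells in the lower 50% by score. The cells were proposed as candidates for HSC of the portal side of the lobule, but position in the tissue was not measured in these libraries.

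The study sorted liver cells by the glow of stored vitamin A (VitA) and by a green reporter in Rosa26mTmG;Col1a1-Cre male mice on a C57BL/6J background. The reporter stays on in any cell in which the Col1a1-driven Cre was once active, so the gate records past promoter activity rather than present collagen RNA. DEN+WAD mice received diethylnitrosamine (DEN), a liver carcinogen, at 10 mg/kg when 2 weeks old, and then a liquid Western alcohol diet (WAD) with 3.5% ethanol by volume for 5 months from 6 weeks of age, while chow mice received saline and chow. From each liver type, reporter-positive cells were split into a VitA+Col1a1+ and a VitA-Col1a1+ library, and DEN+WAD liver also gave a library labelled VitA-Col1a1-. There was 1 library for each of these 5 groups, and the labels do not say how many mice went into each. Cells of 1 library are not replicates, so no p-value was computed. The 95% intervals of levels and ratios below cover counting error of UMIs only and not the spread between cells. Those of shares cover only the sampling of cells within 1 library, and none covers the spread between mice.

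HSC are the pericytes of the sinusoid, the capillary that runs from the portal tract to the central vein of each lobule. They store retinoids as esters made by lecithin retinol acyltransferase (Lrat), and on injury they become contractile and lay down collagen. In healthy mouse liver, HSC near the portal tract and HSC near the central vein carry different RNA. Ngfr, Igfbp3, Il34 and Tagln are known from the portal side, and Adamtsl2, Rspo3, Spon2, Podn and Lum from the central side, where Rspo3 (R-spondin 3) sustains the Wnt signal that zonates hepatocytes.

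The score genes encode proteins of different kinds. Ngfr, the p75 neurotrophin receptor, lies on chromosome 11 at 95568818 to 95587735 on the minus strand of GRCm38. Vtn, for the adhesive plasma and matrix glycoprotein vitronectin, lies on the same chromosome at 78499091 to 78502324 on the plus strand, and Gcgr, for the glucagon receptor, at 120530699 to 120538986 on the plus strand. Adcyap1r1, for the PACAP receptor PAC1, lies on chromosome 6 at 55451978 to 55501451, and Tmem178, for a membrane protein of the endoplasmic reticulum, on chromosome 17 at 80944632 to 81001816, both on the plus strand. Glucagon and PACAP receptors both couple to Gs and raise cyclic AMP. Hepatocytes are the main source of Vtn and Gcgr RNA in liver, so hepatocyte RNA was followed throughout.

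The score was a continuum with no gap at the limit. The last 3 cells inside had scores of 10.0, 9.99 and 9.987, and the first 3 outside had 9.986, 9.98 and 9.97. The median eligible cell scored 2.63, the median Ngfr-Vtn-Gcgr cell 13.3 and the highest 41.4, while 14.1% of eligible cells scored 0. On this score the Ngfr-Vtn-Gcgr cells were therefore the upper end of a range. Whether they held a separate population was not tested.

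**Figure D1:**
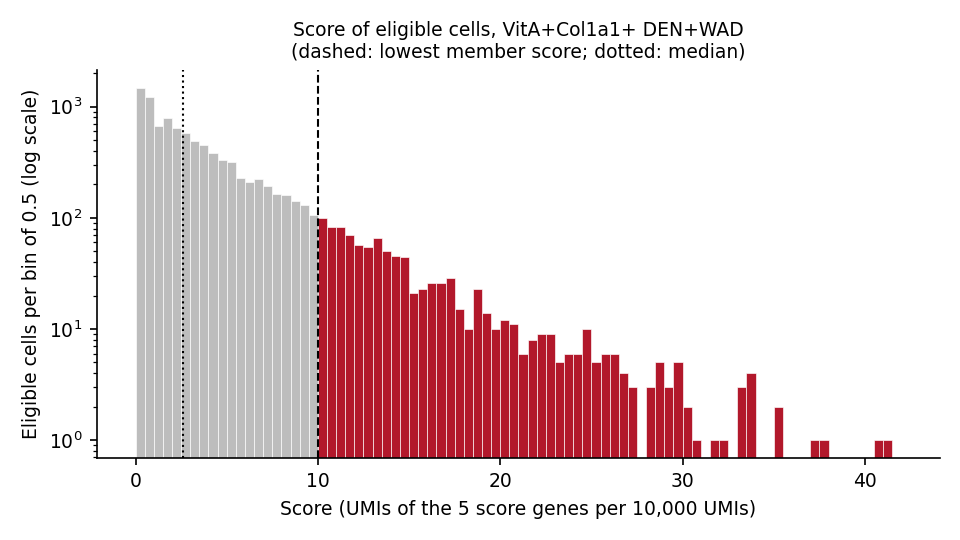
Number of eligible VitA+Col1a1+ DEN+WAD cells (log scale) in each score interval of 0.5, with the score as UMIs of the 5 score genes per 10000 UMIs on the horizontal axis. Red bars are Ngfr-Vtn-Gcgr cells, the dashed line is the lowest score among them and the dotted line the median of 2.63, and the bars decline without a second peak.

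As a description of what the selection took, summed UMIs per 1000000 (CPM) of Ngfr were 627 in the Ngfr-Vtn-Gcgr cells and 62.0 in the lower 50%. Vtn stood at 380 against 4.20 CPM, Tmem178 at 219 against 9.61, Gcgr at 154 against 11.8 and Adcyap1r1 at 93.1 against 17.1. Ngfr was the common element. At least 1 UMI of Ngfr was found in 985 of the 991 cells, of Tmem178 in 854, of Gcgr in 797, and of Vtn and Adcyap1r1 in 593 each. All 5 genes were detected in 239 cells, 4 in 429, 3 in 267, 2 in 54 and 1 in 2. Ngfr contributed the most score UMIs in 665 cells and Vtn in 273, and these subsets are compared below.

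As a further description, each gene was read in cells ranked by the other 4 alone, which leaves the gene itself out of the ranking. The 5 genes were chosen together with earlier results of these data known, so this reading is no independent test. In the top 10% of cells by the other 4 genes, Ngfr stood at 458 CPM against 124 in their lower 50%, a 3.70-fold ratio. Vtn was 12.8-fold higher (196 against 15.3 CPM), and leaving out cells with hepatocyte RNA gave 14.3-fold. Tmem178 was 8.70-fold higher (172 against 19.7 CPM), Gcgr 6.55-fold (126 against 19.2 CPM) and Adcyap1r1 2.96-fold (73.5 against 24.8 CPM). All 5 intervals lay above equality, the nearest being that of Adcyap1r1 at a log2 ratio of 1.45 to 1.68. Between 739 and 911 of the 991 cells chosen in this way were also among the Ngfr-Vtn-Gcgr cells.

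The same held in the 231 eligible cells of the VitA+Col1a1+ chow library, which the selection did not use. There Ngfr was 4.95-fold higher in the cells ranked top by the other 4 genes (783 against 158 CPM), Gcgr 7.73-fold (145 against 18.8 CPM), Adcyap1r1 10.6-fold (119 against 11.3 CPM) and Tmem178 25.5-fold (138 against 5.43 CPM). Vtn had 116 UMIs in the top 23 cells and 7 in the lower 116 cells, 212 against 2.56 CPM. In this description the 5 genes varied together in HSC of both VitA+ libraries, with or without DEN+WAD.

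**Figure D2:**
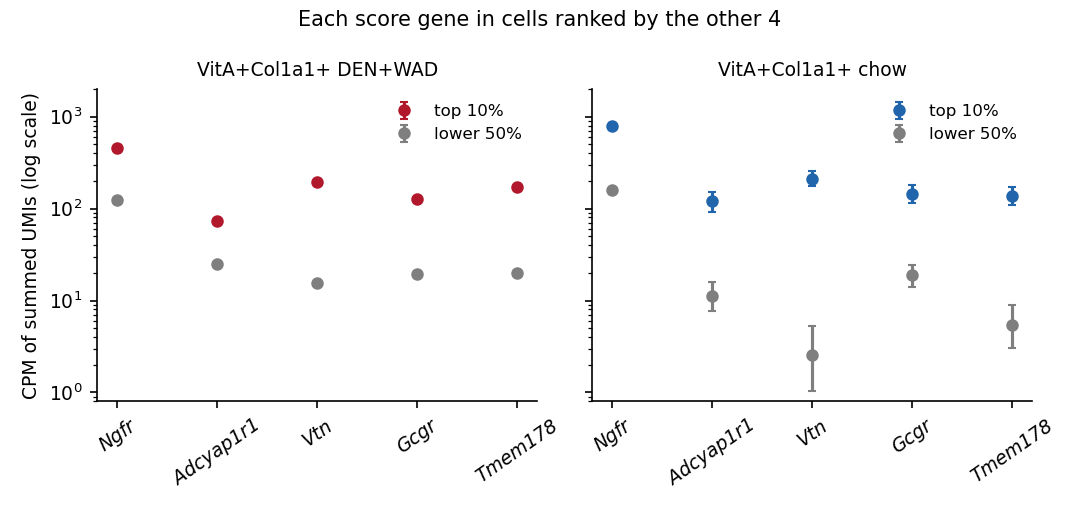
CPM of each score gene (log scale) in the top 10% (coloured) and lower 50% (grey) of eligible cells ranked by the other 4 score genes, in VitA+Col1a1+ DEN+WAD (left) and VitA+Col1a1+ chow (right). Bars are exact Poisson 95% intervals of the summed UMIs. Every coloured point lies above its grey point, from 2.96-fold for Adcyap1r1 to 12.8-fold for Vtn in the DEN+WAD library.

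Shares of cells were also compared after each cell was thinned to 5000 UMIs, since the Ngfr-Vtn-Gcgr cells had a lower median depth (11741 UMIs and 3406 genes) than the lower 50% (13612.5 UMIs and 3666 genes). Igfbp3 was found in 97.7% of thinned Ngfr-Vtn-Gcgr cells (96.5 to 98.5%) and 84.3% of the lower 50%, and at full depth in 99.6% and 94.0%. Spon2 was found in 2.22% of thinned Ngfr-Vtn-Gcgr cells (1.40 to 3.34%) and 33.9% of the lower 50%, and at full depth in 4.94% and 52.4%. In 823 cells with the Kupffer cell genes Clec4f and C1qa from the library labelled VitA-Col1a1-, which should lack both genes, the thinned shares were 19.1% for Igfbp3 and 1.58% for Spon2, at a median of 19349 UMIs before thinning. Spon2 in the Ngfr-Vtn-Gcgr cells was thus no more frequent than its interval in a cell type that should lack it (0.844 to 2.69%). Mitochondrial genes held 2.78% of UMIs in the Ngfr-Vtn-Gcgr cells and 2.79% in the lower 50%.

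Of 7811 genes with at least 10 CPM over eligible cells, leaving out the genes used in the selection, 198 (2.53%) were at least 1.5-fold higher in the Ngfr-Vtn-Gcgr cells and 267 (3.42%) at least 1.5-fold lower. The median log2 ratio over these genes was 0.0024, and 94.0% lay within 1.5-fold. Differences from other HSC were thus limited to a small part of the transcriptome. Since the score genes and these genes were read in the same cells, the ratios below describe the selected cells and test nothing.

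Genes of the portal side were higher in the Ngfr-Vtn-Gcgr cells. All 3 of 3 such genes passed 1.5-fold upward, against 2.53% of all genes tested, and none of them was part of the score. Igfbp3, which binds insulin-like growth factors, stood at 2008 CPM against 944 in the lower 50% (log2 ratio 1.09, 1.07 to 1.11). Il34, a ligand of the macrophage receptor Csf1r, stood at 261 against 116 CPM (1.17, 1.11 to 1.22), and the actin-binding gene Tagln at 1110 against 670 CPM (0.73, 0.70 to 0.75). When cells with Myh11 or Notch3 were left out, Tagln lost this difference, with a log2 ratio of -0.06. Summed, the 3 genes gave 3378 against 1731 CPM, a log2 ratio of 0.96 (0.95 to 0.98). Per cell, the median was 31.1 against 12.4 UMIs per 10000, with ranges that overlapped (highest cell 127 against 162).

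Genes of the central side were lower. Of 7 genes, 6 passed the level minimum, 5 of these were at least 1.5-fold lower and none was higher by that much. Of all genes tested, 3.42% were lower. Spon2, for the matrix protein spondin 2, stood at 8.0 against 148 CPM (log2 ratio -4.20, -4.51 to -3.92). Adamtsl2, which binds fibrillin in microfibrils, stood at 39.0 against 162 CPM (-2.05, -2.19 to -1.92), and Podn, a small leucine-rich proteoglycan, at 8.0 against 45.1 CPM (-2.49, -2.80 to -2.20). Lum, for the collagen-binding lumican, stood at 325 against 906 CPM, and Rspo3 at 499 against 1136 CPM. The exception was Wnt4, a Wnt ligand, at 216 against 191 CPM. Summed, the list gave 1098 against 2598 CPM (log2 ratio -1.24, -1.27 to -1.22), with per-cell medians of 9.97 and 24.7 UMIs per 10000.

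These levels changed in steps along the score. Across 10 equal groups of eligible cells, Il34 went up at every step, from 84.7 CPM in the lowest group to 261 CPM in the highest. Igfbp3 also went up at every step, from 887 to 2008 CPM. In the other direction, Spon2 declined at every step from 183 to 8.0 CPM, and Rspo3 from 1267 to 499 CPM. Lum declined from 1045 to 325 CPM, also at every step. Adamtsl2 stood at 176, 189 and 177 CPM in the lowest 3 groups and then declined to 39.0. Tagln showed no such course: it ranged from 521 to 781 CPM over the lower 9 groups and reached 1110 only in the highest. Wnt4 ranged from 187 to 196 CPM over the lower 9 groups.

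**Figure D3:**
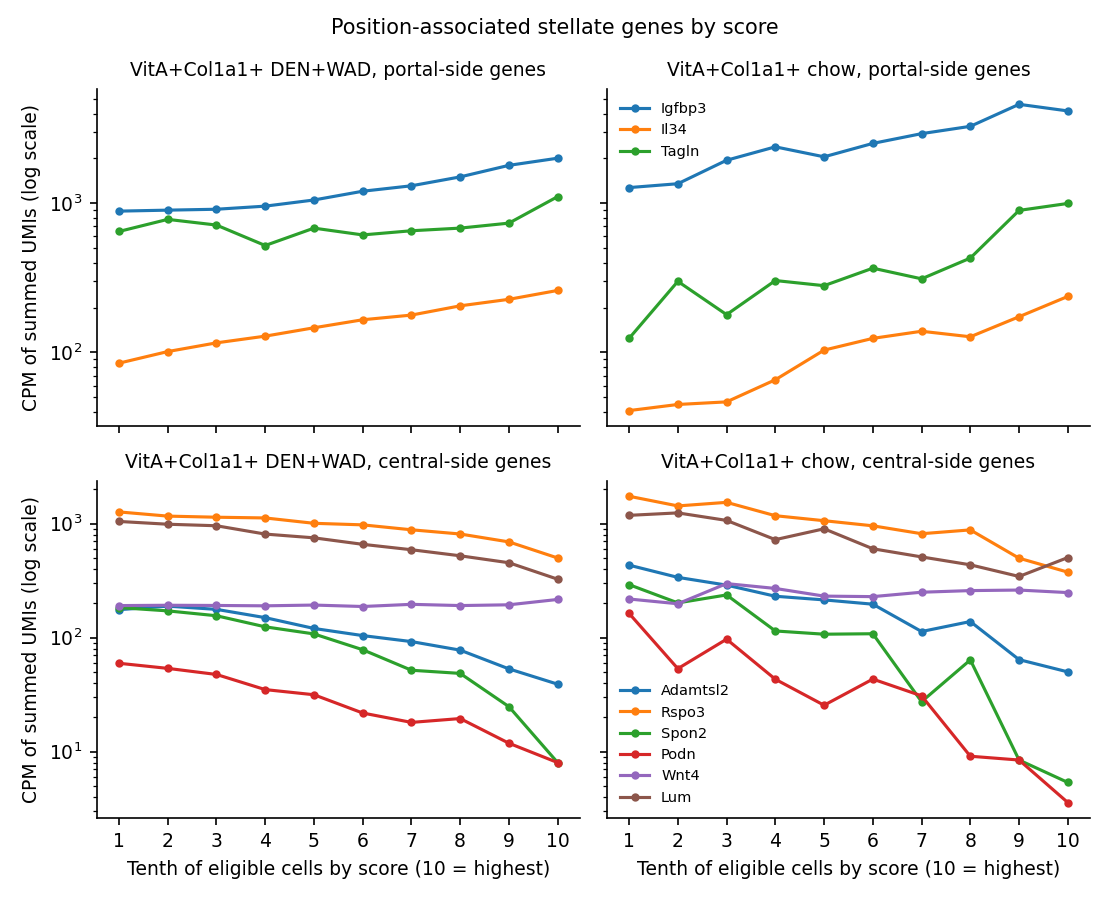
CPM (log scale) of portal-side genes (top) and central-side genes (bottom) in 10 equal groups of eligible cells ordered by score, in VitA+Col1a1+ DEN+WAD (left) and VitA+Col1a1+ chow (right). In both libraries Igfbp3 and Il34 are higher, and Spon2, Adamtsl2, Rspo3, Lum and Podn lower, in the highest group than in the lowest, while in chow Lum goes up and Igfbp3 down between the last 2 groups. Each chow group holds 23 or 24 cells, so its points scatter more.

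The opposite choice of cells was made to see whether both ends met in the same cell. Unrelated choices of 10% of the eligible cells would share about 10% of each set. The top 10% of eligible cells by Spon2, Podn and Lum, also 991 cells, shared 5 cells with the Ngfr-Vtn-Gcgr cells, 0.505% of each set (exact Clopper-Pearson interval 0.164 to 1.17%). With cells thinned to 5000 UMIs the share was 1.82%. The top 10% by collagen genes shared 28 cells (2.83%), and the top 10% by contractile genes shared 207 (20.9%). In the cells chosen on Spon2, Podn and Lum, Ngfr stood at 81.3 CPM and Igfbp3 at 683 CPM, below their levels in the Ngfr-Vtn-Gcgr cells. Adamtsl2, also not used in either choice, stood at 263 CPM in the cells chosen on Spon2, Podn and Lum against 39.0 in the Ngfr-Vtn-Gcgr cells.

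A fixed rule named the 12 genes with the highest and the 12 with the lowest ratios. The highest were Apoa1, Alb, Mest, Myh11, Procr, Clec4g, Ndufa4l2, Tmem100, Fhl2, Rgs4, Htra1 and Mef2c. Apoa1 and Alb, for the hepatocyte products apolipoprotein A-I and albumin, came almost wholly from 1 barcode. It held 80850 UMIs, of which 16652 (20.6%) were of 11 hepatocyte genes, with 6823 of the 6860 Alb UMIs and 4758 of the 4771 Apoa1 UMIs of all Ngfr-Vtn-Gcgr cells. The same barcode entered the selection on 119 Vtn and 11 Gcgr UMIs, with 2 Lrat UMIs and none of Ngfr. Without the 6 eligible cells with such RNA, the log2 ratios were 0.09 for Alb and 0.02 for Apoa1. Whether that barcode held more than 1 cell was not tested.

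The other 10 genes covered several functions. Mest, an imprinted gene of mesoderm, stood at 143 against 11.6 CPM (log2 ratio 3.62, 3.50 to 3.74) and was found in 37.8% of thinned Ngfr-Vtn-Gcgr cells against 4.90% of the lower 50%. Myh11, the smooth muscle myosin heavy chain, stood at 98.3 against 6.94 CPM (3.83), and Procr, the endothelial protein C receptor, at 96.2 against 8.60 CPM (3.48). Ndufa4l2, a mitochondrial protein also marking pericytes, stood at 226 against 48.4 CPM (2.22). Rgs4, which shortens signalling from G proteins, had the highest level of the 12 genes, 874 against 257 CPM (1.77), and the transcription factor gene Mef2c stood at 156 against 43.8 CPM (1.83). Tmem100, a target of BMP signalling, stood at 135 against 28.2 CPM (2.26), the cofactor gene Fhl2 at 58.8 against 13.5 CPM (2.13) and the secreted protease gene Htra1 at 119 against 32.0 CPM (1.90). Clec4g, a lectin gene of sinusoidal endothelium, stood at 83.0 against 12.9 CPM (2.69), while Cdh5, Kdr, Stab2 and Lyve1, which define endothelium, were under 1 CPM in both groups.

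The lowest 12 were Spon2, Inmt, Dpt, Lpar1, Timp1, Ano1, Htra3, Alcam, Col1a1, Dkk3, Col6a5 and Podn. Inmt, for an amine N-methyltransferase, stood at 18.6 against 233 CPM (log2 ratio -3.64, -3.84 to -3.45), and Lpar1, the receptor for lysophosphatidic acid, at 4.78 against 64.8 CPM (-3.76). Dpt, a matrix gene of fibroblasts, stood at 4.78 against 78.2 CPM (-4.03). Timp1, the inhibitor of matrix metalloproteinases that rises in fibrosis, stood at 13.6 against 105 CPM (-2.94). Col1a1, the main fibrillar collagen chain, stood at 87.2 against 436 CPM (-2.32). When cells with a UMI of Mgp, Mfap4, Fbln2 or Gas6 were left out, its log2 ratio was -1.47. The chloride channel gene Ano1, the protease gene Htra3, the adhesion gene Alcam, the Wnt modulator gene Dkk3 and the collagen gene Col6a5 lay between log2 ratios of -3.34 and -2.66.

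The rule was then applied within each of the other 4 libraries, where the named genes had no part in being chosen. In the VitA+Col1a1+ chow library, 10 of the 12 higher genes were again higher, with intervals above equality, and Apoa1 and Alb had no UMI in either set of cells. Of the 12 lower genes 10 were again lower, 9 with intervals below equality, and the 2 exceptions were Col1a1 and Timp1, the latter with 5 UMIs against 1. Mest stood at 121 against 20.7 CPM there, Procr at 120 against 17.4 CPM, Inmt at 48.2 against 415 CPM and Spon2 at 5.36 against 188 CPM. Over all 4 other libraries, 7 of 12 higher genes (Mest, Myh11, Procr, Clec4g, Ndufa4l2, Rgs4 and Mef2c) and 10 of 12 lower genes kept their direction in every library.

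**Figure D4:**
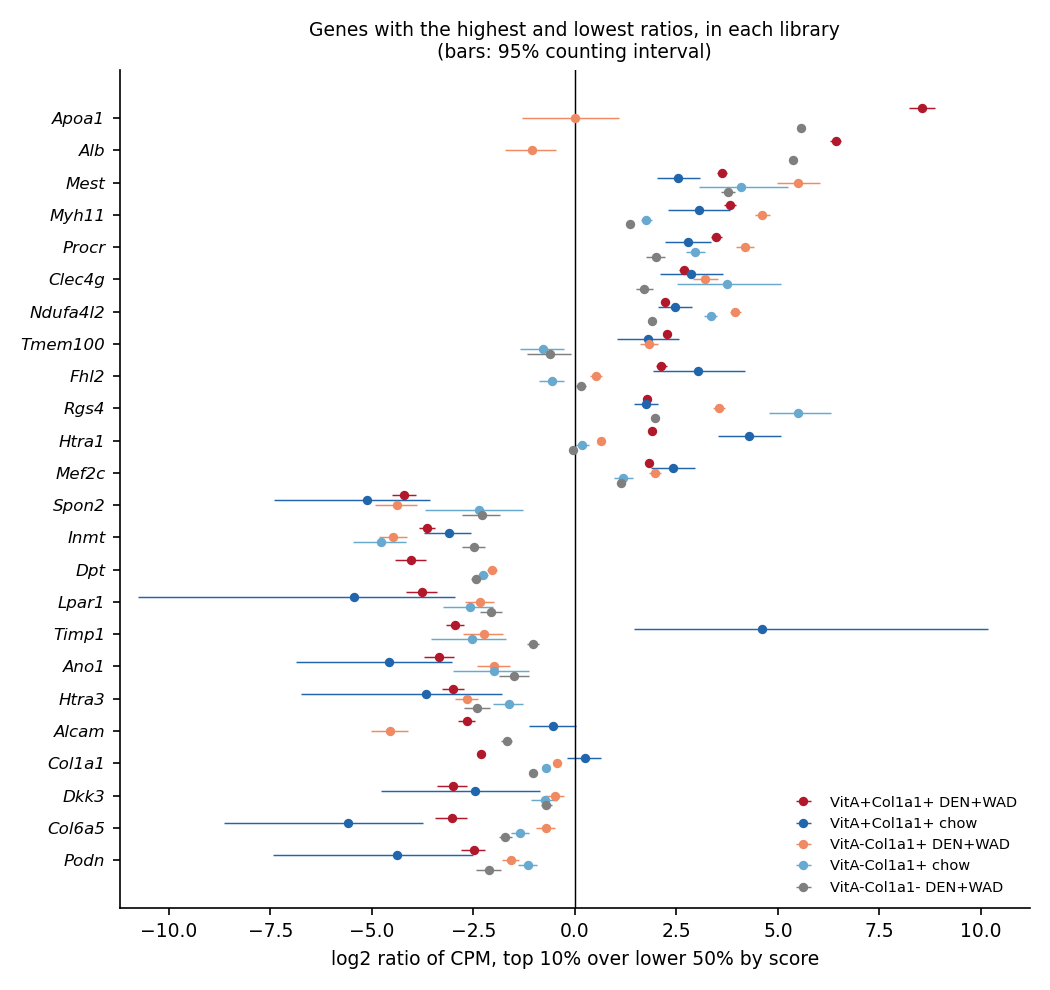
log2 ratio of CPM between the top 10% and the lower 50% by score for the 24 named genes in each of the 5 libraries (colours), with 95% counting intervals as bars and a line at equality. Genes with no UMI in either set of a library are not drawn there. Mest, Procr, Clec4g, Ndufa4l2, Rgs4 and Mef2c lie right of the line and Spon2, Inmt, Lpar1 and Podn left of it in all 5 libraries, whereas Timp1 and Col1a1 cross it in VitA+Col1a1+ chow.

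The stellate label was checked on 18 identity genes. All 18 passed the level minimum, 13 of them within 1.5-fold, against 94.0% of all genes tested. Their sum was 62073 CPM against 64834 in the lower 50%. Colec11 and Colec10, soluble collectins made by HSC, were higher (8122 against 5287 and 2287 against 1449 CPM), as were Sod3, for extracellular superoxide dismutase (4808 against 2743 CPM), and Pdgfrb, the platelet-derived growth factor receptor (340 against 202 CPM). Lhx2, a transcription factor gene of quiescent HSC, was lower (261 against 427 CPM). Reln stood at 973 against 1244 CPM and Dcn at 21487 against 27722 CPM. The HSC genes that the selection did not use were thus present at levels near those of the other eligible cells.

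Retinoid genes lay mostly within 1.5-fold, as did 94.0% of all genes tested. Of 18 genes 12 passed the level minimum, none was at least 1.5-fold higher and 2 were lower, against 2.53% and 3.42% of all genes tested. The lipid droplet gene Plin2 stood at 356 against 275 CPM. Aldh1a1, a retinaldehyde dehydrogenase, was lower at 139 against 230 CPM, and the retinoic acid receptor gene Rarb at 32.6 against 51.2 CPM. Lrat itself, used for the selection, stood at 1354 against 1552 CPM.

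Collagen and activation genes differed in both directions. Of 25 genes 12 were at least 1.5-fold lower and 2 were higher, against 3.42% and 2.53% of all genes tested. The median log2 ratio was -0.57 against 0.0024 over all genes tested. Col3a1 stood at 650 against 1416 CPM, Col1a2 at 419 against 796 CPM, Col6a3 at 79.3 against 176 CPM and the crosslinking enzyme gene Loxl1 at 23.4 against 75.5 CPM. Fn1 (fibronectin) was higher, at 767 against 353 CPM, and so was Ctgf, at 429 against 286 CPM. The basement membrane collagens Col4a1 and Col4a2 (737 against 611 and 316 against 257 CPM) were on the upper side of equality, unlike the fibrillar ones. Col1a1 peaked at 660 CPM in the second lowest of the 10 score groups and declined from there to 87.2 CPM.

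Most contractile genes were higher. Of 14 genes 12 passed the level minimum, 8 were at least 1.5-fold higher and 1, Actn1, was lower, with a median log2 ratio of 0.72. Of all genes tested, 2.53% were higher and 3.42% lower. Beside Myh11 and Tagln, these were Myl9 (266 against 134 CPM), Tpm2 (103 against 58.8 CPM), Tpm1 (546 against 333 CPM), Cald1 (1523 against 945 CPM), Cnn2 and Acta2 (166 against 100 CPM). Notch3, a Notch receptor of mural cells, stood at 69.7 against 2.13 CPM, and Kcnk3, a potassium channel gene, at 67.1 against 1.45 CPM. After thinning, a Myh11 UMI was found in 30.5% of the Ngfr-Vtn-Gcgr cells, 2.56% of the lower 50% and 7.05% of the Clec4f and C1qa positive cells of the library labelled VitA-Col1a1-, the Kupffer cell background. For Notch3 these shares were 20.7%, 0.847% and 7.78%, so the share in the lower 50% was below the background for both genes. At full depth 595 of the 991 cells (60.04%) and 7.67% of the lower 50% had a UMI of either gene. When all cells with either gene were left out and the top 10% chosen anew among the remaining 7876, Tagln had a log2 ratio of -0.06 and Acta2 of -2.92. Igfbp3 kept 1.10, Il34 1.15, Mest 2.89 and Spon2 -3.20 in that comparison. Cnn1, Casq2, Pln and Rergl, which define vascular smooth muscle, had no UMI in any Ngfr-Vtn-Gcgr cell, while Lmod1 stood at 22.6 against 4.55 CPM.

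Of 31 receptor genes for hormones and vasoactive mediators, 17 passed the level minimum. Of these 14 lay within 1.5-fold, as did 94.0% of all genes tested, 2 were at least 1.5-fold higher and 1 lower. The higher ones were Pth1r, the parathyroid hormone receptor, at 1493 against 952 CPM (log2 ratio 0.65, 0.63 to 0.67), and Adra1b, an alpha-1 adrenergic receptor, at 59.5 against 34.7 CPM. Lpar1 was the lower one. Ednrb, the endothelin B receptor, stood at 743 against 527 CPM and Agtr1a, the angiotensin II receptor, at 644 against 510 CPM. Vipr1, related to the PAC1 receptor, stood at 932 against 762 CPM, while Vipr2 had no UMI in the Ngfr-Vtn-Gcgr cells. Ptger3, below the level minimum over eligible cells, stood at 13.5 against 1.72 CPM.

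Genes downstream of Gs-coupled receptors lay mostly within 1.5-fold, as did 94.0% of all genes tested. Of 29 genes 17 passed the level minimum, with 1 higher (the phosphodiesterase gene Pde3a, 243 against 150 CPM), 1 lower (Pde4d, 12.5 against 25.3 CPM) and a median log2 ratio of -0.08. Gnas, for the Gs alpha subunit, stood at 1110 against 1164 CPM, the adenylyl cyclase gene Adcy5 at 55.4 against 51.5 CPM and Creb1 at 38.1 CPM in both. In the neurotrophin axis, 8 of 25 genes passed the minimum. Ntf3, for a neurotrophin ligand, stood at 116 against 99.6 CPM. The Trk receptor genes Ntrk2 and Ntrk3 were under 1 CPM in the Ngfr-Vtn-Gcgr cells, and Sort1, for the co-receptor sortilin, stood at 8.0 against 1.15 CPM.

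Among partners of vitronectin, 8 of 13 genes passed the minimum, 1 was higher and 4 were lower, against 2.53% and 3.42% of all genes tested. Itgb3, a chain of the vitronectin receptor, stood at 103 against 55.6 CPM, while its partner Itgav stood at 60.3 against 74.6 CPM. The plasminogen activator gene Plat (16.7 against 58.2 CPM), the protease inhibitor gene Serpine2 (8.49 against 23.0 CPM) and the integrin gene Itga8 (36.9 against 60.9 CPM) were among the lower ones.

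Of 36 signalling genes linked to zonation, 17 passed the minimum, 3 were higher and 3 lower, against 2.53% and 3.42% of all genes tested. Jag1, a Notch ligand, stood at 102 against 49.1 CPM (log2 ratio 1.06, 0.96 to 1.15), beside the receptor Notch3. Ptch1, the Hedgehog receptor and a target of that pathway, stood at 85.7 against 36.5 CPM (1.23, 1.13 to 1.34), whereas Hhip, which binds Hedgehog ligands, stood at 142 against 206 CPM and Gli1 was under 1 CPM. The lower ones were Dkk3, Gdf10 (37.4 against 66.4 CPM) and Igf1 (7.51 against 17.6 CPM). Hgf, the hepatocyte growth factor, stood at 748 against 838 CPM and Gdf2 (BMP9) at 666 against 667 CPM. Outside the lists, and singled out after their values were seen, the receptor gene Fgfr2 stood at 179 against 643 CPM and Fcna, a ficolin gene, at 899 against 2336 CPM.

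Immune and stress lists were read against the 2.53% of all genes tested that were higher and the 3.42% that were lower. None of 20 immediate-early and heat shock genes passed 1.5-fold in either direction, with Fos at 4302 against 4463 CPM and Hspa1a at 4957 against 3892 CPM. Of 17 interferon-response genes none was higher and 2 were lower, Ifi27l2a (792 against 1373 CPM) and Ifi44 (12.5 against 20.8 CPM). Of 19 chemokine and inflammation genes 12 passed the minimum, 1 was higher and 3 were lower. Ccl2, which recruits monocytes, was the higher one at 787 against 457 CPM, and Cxcl14 (189 against 435 CPM), Cxcl9 (12.8 against 40.9 CPM) and Ccl7 (28.1 against 71.3 CPM) were lower. Of 16 genes that the study followed, 8 passed the minimum, 4 were lower and none was higher. Gas6, a ligand of TAM receptors, stood at 1.15 against 31.0 CPM and Scd2, a stearoyl-CoA desaturase gene, at 53.8 against 65.4 CPM. Cyp1b1, below the minimum over eligible cells, stood at 0.330 against 7.97 CPM.

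RNA of other cell types was followed in 10 lists, beside 1 of cycling genes. Of 15 portal fibroblast genes 5 passed the minimum and 4 of these were lower, among them Mgp (0.247 against 33.6 CPM) and Gsn (184 against 359 CPM), and 1, Entpd2, was higher (20.9 against 7.77 CPM). Of all genes tested, 3.42% were lower and 2.53% higher. Mfap4, below the minimum, stood at 0.247 against 12.8 CPM. Of 10 vascular smooth muscle genes 2 passed, Myh11 above 1.5-fold and Mustn1 at 853 against 706 CPM. A UMI of Mgp, Mfap4, Fbln2 or Gas6 was found in 17 of the 991 cells (1.72%) and in 10.3% of the lower 50%. None of 13 macrophage, 12 T, NK and B, 5 neutrophil, 10 cholangiocyte, 6 mesothelial and 10 cycling genes passed the minimum, and their sums were 4.21, 4.87, 0.165, 27.0, 0.247 and 26.0 CPM. The 12 Schwann and glial genes, another known site of Ngfr, gave 17.6 CPM, of which Gfap, also an HSC gene, made 15.7, and Sox10, Mbp and Cdh19 had no UMI. Of 15 endothelial genes, the 14 present among the genes read gave 162 against 123 CPM, led by Clec4g and Egfl7. The 22 hepatocyte genes gave 1852 against 579 CPM, with a per-cell median of 2.40 against 3.88 UMIs per 10000. Apoc1 alone held 162 and 371 CPM of these sums. It stood at 260 CPM in the lower 50% of VitA+Col1a1+ chow, where Alb had no UMI. The medians therefore do not measure hepatocyte RNA alone.

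Within the Ngfr-Vtn-Gcgr cells, the 273 cells led by Vtn, 272 without the hepatocyte RNA barcode, differed from the 665 led by Ngfr in contractile and other genes. Acta2 stood at 365 CPM in the Vtn-led and 76.7 CPM in the Ngfr-led cells (log2 ratio 2.25, 2.11 to 2.39). Lmod1 stood at 53.7 against 9.64 CPM (2.48), Notch3 at 124 against 45.8 CPM (1.44), Tagln at 1571 against 901 CPM (0.80) and Myh11 at 139 against 83.6 CPM (0.74). Genes of low level also differed. Aspn, a small matrix proteoglycan gene, stood at 8.06 against 0.495 CPM, Ephx3 at 15.2 against 2.72, Lox, which crosslinks collagen, at 5.67 against 1.11, Podn at 14.3 against 5.56 and Spon2 at 12.5 against 6.43 CPM. Procr stood at 134 against 80.3 CPM and Col3a1 at 887 against 559 CPM. Some genes of this comparison were chosen after their values were seen. Several were closer between the subsets. Igfbp3 stood at 1903 against 2048 CPM, Il34 at 257 against 263, Adamtsl2 at 43.0 against 39.4, Mest at 143 against 144 and Gcgr at 134 against 157 CPM. Col1a1 was higher in the Vtn-led cells, at 146 against 65.9 CPM, and remained below the 436 CPM of the lower 50%. The subsets had median depths of 11703.5 and 11776 UMIs.

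With the same selection, the VitA+Col1a1+ chow library gave 23 cells to set against 116. Their portal-side sum was 5403 against 2112 CPM (log2 ratio 1.35, 1.29 to 1.42) and their central-side sum 1186 against 3202 CPM (-1.43, -1.55 to -1.32). After thinning to 5000 UMIs, 13.98% of eligible cells in VitA+Col1a1+ DEN+WAD (13.3 to 14.7%) and 16.9% in VitA+Col1a1+ chow (12.3 to 22.3%) had 5 or more score UMIs. These intervals cover only the sampling of cells within 1 library. At full depth, 12.6% of the chow cells reached the score limit of the DEN+WAD library. Portal-side and central-side genes therefore separated along the score in both libraries. Whether the share of high-scoring cells differed between the groups was not tested, since each had 1 library. The DEN+WAD and chow libraries can be compared only as libraries, since their difference cannot be told apart from that between any 2 sorts.

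The collagen pattern, by contrast, was not the same in the 2 libraries. Col1a1 stood at 87.2 against 436 CPM in VitA+Col1a1+ DEN+WAD and at 107 against 90.9 CPM in VitA+Col1a1+ chow, and the log2 ratios of -2.32 and 0.24 differed by -2.56 (-2.97 to -2.14). The Ngfr-Vtn-Gcgr cells of both libraries thus had similar Col1a1 levels, and the difference lay in the lower 50%. In DEN+WAD, 10.3% of the lower 50% had a UMI of Mgp, Mfap4, Fbln2 or Gas6. Without such cells the DEN+WAD log2 ratio of Col1a1 was -1.47. Col1a2 stood at 419 against 796 CPM in DEN+WAD and 514 against 507 CPM in chow, and Col3a1 at 650 against 1416 and 738 against 968 CPM. Over 24 collagen and activation genes, the log2 ratio was lower in DEN+WAD than in chow for 16 with an interval below equality, higher for 2, and 6 intervals included equality. The medians were -0.56 and 0.08.

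**Figure D5:**
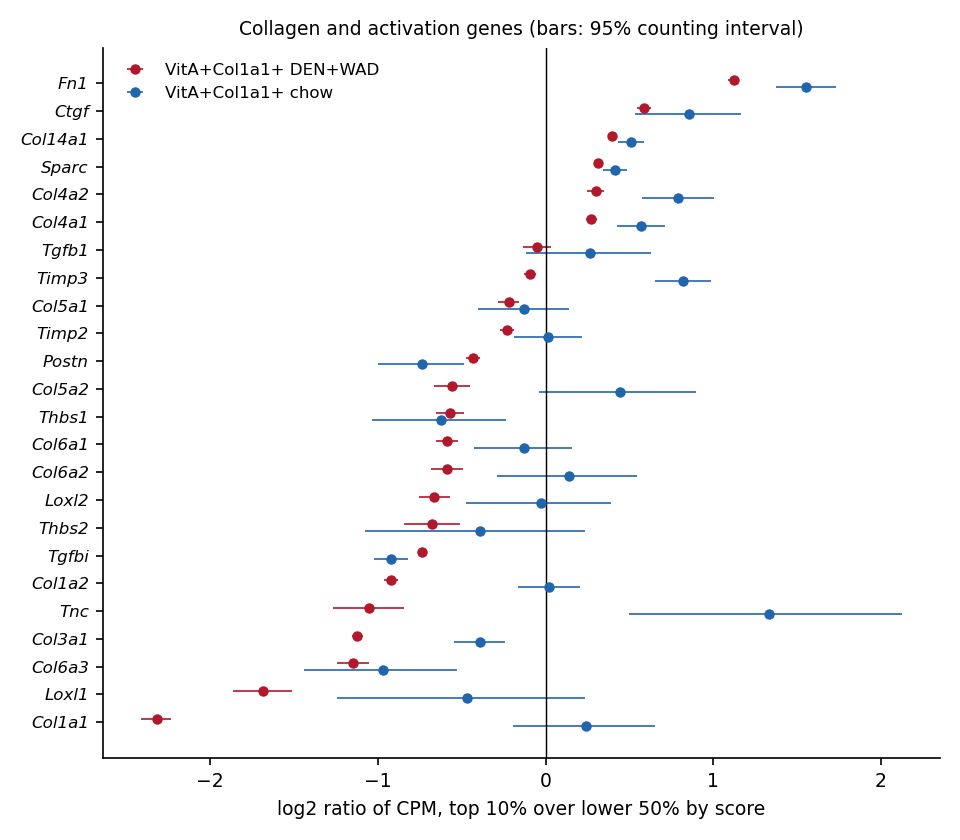
log2 ratio of CPM between the top 10% and the lower 50% by score for 24 collagen and activation genes in VitA+Col1a1+ DEN+WAD (red) and VitA+Col1a1+ chow (blue), with 95% counting intervals as bars. Col1a1, Col1a2 and Tnc lie left of equality in DEN+WAD and at or right of it in chow, while Fn1, Ctgf and Col14a1 lie right of it in both.

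Some other genes differed between the 2 VitA+ libraries more in the lower 50% than in the Ngfr-Vtn-Gcgr cells. Ccl2 stood at 787 CPM in the Ngfr-Vtn-Gcgr cells of DEN+WAD and 684 in those of chow, but at 457 and 75.6 CPM in the lower 50%. Cxcl2, a neutrophil chemokine, stood at 54.8 and 102 CPM in the Ngfr-Vtn-Gcgr cells and at 60.6 and 7.27 CPM in the lower 50%, so that the difference ran in opposite directions (log2 -0.89, -1.28 to -0.48, and 3.06). Tagln stood at 1110 and 998 CPM against 670 and 241 CPM. Other genes moved in both sets of cells. Rgs4 stood at 874 against 288 CPM between the Ngfr-Vtn-Gcgr cells of DEN+WAD and chow (log2 difference 1.60, 1.38 to 1.84) and at 257 against 85.4 CPM between the lower sets (1.59). Igfbp3 stood at 2008 against 4167 CPM (-1.05) and at 944 against 1811 CPM (-0.94).

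In the 3 VitA- libraries the same selection took cells of another composition, with 173 cells from the VitA-Col1a1+ gate of DEN+WAD liver, 46 from the chow counterpart and 328 from the library labelled VitA-Col1a1-. Vtn led there, at 1507, 2335 and 705 CPM, with Ngfr at 281, 104 and 314 CPM. Acta2 stood at 3270, 2804 and 1927 CPM and Notch3 at 354, 822 and 300 CPM, levels far above the 166 and 69.7 CPM of the VitA+Col1a1+ DEN+WAD cells. In the library labelled VitA-Col1a1-, 59 of the 328 cells carried hepatocyte RNA, which made up 1.99% of their UMIs, and Vtn had a log2 ratio of -0.05 there in cells ranked by the other 4 genes, and 0.90 without such cells. Adcyap1r1 had -0.17 (-0.59 to 0.23) and 0.04 (-0.42 to 0.47) in the same 2 rankings, with intervals that included equality. The central-side sum was lower in the selected cells in all 3 (log2 ratios -2.02, -1.89 and -2.04). The portal-side sum was higher at 1.29, 0.38 and 0.10, but Igfbp3 itself was lower in VitA-Col1a1+ chow (-0.60) and in the library labelled VitA-Col1a1- (-0.34). Il34 was higher in all 5 libraries.

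Barcode sequences were seldom shared between libraries. The VitA+Col1a1+ DEN+WAD library shared from 1 to 21 of its 10481 barcodes with each of the others, and 3 Ngfr-Vtn-Gcgr cells carried a shared barcode.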

How the data were processed

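Single-cell libraries were made by the authors with the 10x Genomics 3' kit, whose version the labels give both as v3.1 and as v2. The deposited values were whole-number UMI counts per gene and barcode, made by the authors with Cell Ranger 3.1.0 on mm10 per the submitters' processing notes, without normalization. A later version stands in the file header of the fraction labelled VitA-Col1a1-. All 31053 genes were read, and 30934 identifiers were found in the GENCODE M21 annotation of GRCm38. Totals ran from 6145748 to 149936344 UMIs per library, with median depths of 9105.5 to 24077 UMIs per barcode. All deposited barcodes with at least 5000 UMIs were considered, and no doublet caller was run. The library labelled VitA-Col1a1- carried Col1a1 UMIs and is named by its label.

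UMIs were summed over cells and scaled to 1000000 (CPM). Levels carry exact Poisson intervals, ratios exact conditional binomial intervals and shares exact Clopper-Pearson intervals, all at 95% and covering counting error only. A count of 0 was set to a floor of 3 UMIs for ratios. Genes counted by size needed 10 CPM over eligible cells. Named genes were the 12 highest and 12 lowest ratios after adding 5 CPM, among genes of at least 20 CPM, leaving out the selection genes, mitochondrial and ribosomal protein genes and unnamed gene models. The cells, the 27 gene lists and the comparisons were chosen with earlier results of these data known. The hepatocyte, Myh11 or Notch3, and fibroblast exclusions, and the genes of the Vtn-led comparison, were added after seeing the data. Computation used Python 3.11.15, numpy 2.4.6, scipy 1.17.1, pandas 2.3.3 and matplotlib 3.10.9, with TMM factors from R 4.3.3 and its package edgeR 4.0.16. The ratio functions were tested on simulated counts. Values of some listed genes are not reported here.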

Additional observations from a re-analysis of the deposited data

Results flagged for a closer look

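Tnc, for tenascin C, lay on opposite sides of equality in the 2 VitA+ libraries: its log2 ratio between the top 10% and the lower 50% by score was -1.055 in VitA+Col1a1+ DEN+WAD and 1.332 in VitA+Col1a1+ chow. The chow value rests on 21 UMIs in the top cells. Trf, for transferrin, had log2 ratios of 1.008 in DEN+WAD and -0.9672 in chow, and without cells with hepatocyte RNA the DEN+WAD value was -0.15, on the same side as chow. With 1 library a group, neither difference was tested over replicates.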

How the results depend on the processing

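No paired analysis was possible because each group held 1 library and the labels give no replicate numbers that groups share. Leaving out a replicate was likewise not possible.

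The summed portal-side log2 ratio stayed above equality in all alternatives run. It was 0.99 with at least 3 Lrat UMIs, 1.09 without the 10% of cells with the most UMIs, 1.08 for the top 5% and 0.82 for the top 20% by score, 0.77 against all other eligible cells, 0.93 with cells thinned to 5000 UMIs, 0.94 when chosen within quartiles of UMIs, 0.88 with a score without Vtn and Gcgr, 0.95 with TMM factors or median-of-ratios size factors, 1.04 as a mean over cells, 0.785 without cells with Myh11 or Notch3 and 1.05 without cells with Mgp, Mfap4, Fbln2 or Gas6. The summed central-side log2 ratio stayed below equality, at -1.21 with a minimum of 10000 UMIs, -1.28 without the 10% of cells with the most UMIs, -1.40 for the top 5%, -1.03 for the top 20%, -1.02 against all other eligible cells, -1.08 thinned, -1.09 within quartiles, -1.16 without Vtn and Gcgr in the score and -0.97 without cells with Myh11 or Notch3.

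The count of genes at least 1.5-fold higher was 130 against all other eligible cells and 5118 with no minimum level, where the count of lower genes was 1595, since genes with a few UMIs then enter. The share of Ngfr-Vtn-Gcgr cells also in the top 10% by Spon2, Podn and Lum was 0% for the top 5%, 3.73% for the top 20% and 1.82% thinned. At full depth, the shares of cells past the score limit in the DEN+WAD libraries were 10.0% (VitA+Col1a1+), 10.9% (VitA-Col1a1+) and 5.09% (labelled VitA-Col1a1-).

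Some hepatocyte genes changed direction. Ahsg had log2 ratios of -1.46 with at least 3 Lrat UMIs, -1.01 without the deepest cells, -5.58 without Vtn and Gcgr in the score and -1.51 without hepatocyte RNA cells. Alb had -1.06, -0.32 and -5.04 in the first 3 of these, Apoa1 -0.057 without the deepest cells and -6.31 without Vtn and Gcgr, and Trf -0.15, -0.20, -0.0099 (thinned), -0.35 and -0.15. Without cells with Myh11 or Notch3, Acta2 had -2.92 and Tagln -0.056. No other single-gene value at least 1.5-fold from equality changed direction, while some nearer to equality did. Over all results and alternatives, 2161 values stayed within their counting interval or, for counts of genes, within 1.5 times, and 1189 moved further. Of the 24 named genes, 22 to 24 kept their direction under each alternative, except that 23 could be compared without Myh11 or Notch3. TMM and median-of-ratios scaling shifted log2 ratios by 0.02.

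Depth limited what 1 cell shows, with a median of 11741 UMIs in the Ngfr-Vtn-Gcgr cells. The chow values rest on 23 cells. Sorting, dissociation and the number of mice cannot be told apart from the groups.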
